A study of Mus musculus with 3 samples.

Results

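The genes described are 9 macrophage growth factor and identity genes, *Csf1*, *Il34*, *Csf1r*, *Adgre1*, *Cx3cr1*, *Ccr2*, *Mrc1*, *Cd163* and *Ly6c2*. They were chosen by name and not by a measured value, and all 9 were found by symbol among the 31053 genes of the count matrices. They were followed through 3 droplet single-cell RNA libraries of the mouse limbus and iridocorneal angle, the ring of tissue that holds the trabecular meshwork (TM) and the canal of Schlemm (SC). The control group held 2 libraries (control 1 and control 2) from *Angpt1* flox/flox mice, and the *Angpt1*ΔNC group held 1 library from *Angpt1* flox/flox;Wnt1Cre+ mice. All mice carried the floxed allele, were 6 weeks old and of mixed strain, bred over 2 generations to albino ICR stock, and every library was a pool from 2 to 3 animals, males and females by protocol. Wnt1-Cre acts in neural crest derivatives, which include the trabecular meshwork and do not include cells of the blood lineages. With 1 *Angpt1*ΔNC library, genotype and library cannot be told apart.

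Tissue macrophages depend on the receptor tyrosine kinase CSF1R, which is activated by 2 secreted ligands, CSF1 and IL34, usually made by neighbouring stromal, vascular or epithelial cells. Resident macrophages are commonly recognised by the adhesion receptor F4/80 (*Adgre1*), the fractalkine receptor (*Cx3cr1*), the mannose receptor CD206 (*Mrc1*) and the haemoglobin-haptoglobin scavenger receptor CD163 (*Cd163*). Classical monocytes, which leave the blood through the chemokine receptor CCR2, carry the surface antigen encoded by *Ly6c2*.

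The cells were placed by the study in 35 labels, made by clustering the same transcripts, so levels between labels are given as a description with no test. Labels TM1 to TM11 are not all trabecular meshwork. The study reads TM1 as keratinocytes, TM2 as corneal endothelium, TM6 to TM9 as uveal cells and, as a hypothesis, TM10 as corneal stroma. For its trabecular meshwork averages it took TM3, TM4, TM5, TM7 and TM11. Kept cells numbered 9076, 10160 and 6772 in control 1, control 2 and *Angpt1*ΔNC, the order used for every set of 3 values below, with 76981606, 80346829 and 66484181 unique molecular identifiers (UMIs, each 1 captured RNA molecule). Between 13 and 25 cell barcodes were shared by any pair of libraries. *Angpt1* stood at 37.8, 39.3 and 0.391 UMIs per 1000000. By X- and Y-linked transcripts, 0 and 1 cells of the controls were typed as female against 3861 in the *Angpt1*ΔNC library, of whose typed cells 34.0% were male. Sex therefore differed between the groups, and the genotype tests below, other than those in cluster 25, were repeated on cells typed as male where the members had enough UMIs. Clusters 23, 24 and 25, which the study calls monocytes, held 7.06%, 8.68% and 8.05% of the kept cells. Cluster 24, with 515, 659 and 401 cells, was led by *Ccl4*, *Ccl3*, *Tnf*, *C1qb*, *Ms4a7* and *Pf4*. Its 8 macrophage markers summed to 130, 134 and 133 UMIs per 10,000 and its monocyte markers to 1.22, 1.09 and 1.33. Its 10 dendritic markers summed to 127, 134 and 100. Of those, 2 were found in at least 10% of cells in each library, against 6 of the macrophage markers, so it is called macrophage-like here. Cluster 25 (56, 81 and 58 cells) was also macrophage-like in this sense, at a median of only 1456, 1728 and 1321 UMIs per cell. It was led by *Aif1*, *Fcrls*, *Lyz2* and *C1qa*, of which *Fcrls* is a microglia marker. The 8 microglia markers summed to 26.6, 21.8 and 22.9 in cluster 25 and to 15.9, 19.2 and 14.98 in cluster 24. Of these markers 3, 3 and 4 were found in at least 10% of cells in cluster 25. In the deeper cells of cluster 24 this held for 5, 6 and 6. The 5 mast cell markers summed to 28.6, 13.5 and 11.8 in cluster 25, with 0 of them in at least 10% of cells. Cluster 23 (70, 142 and 86 cells) was led by *Cytip*, *Csf2rb*, *Il1r2*, *Napsa*, *Il1b* and *Ccr7*. It carried markers of several classes and is named only by its number. Of 10 dendritic genes 8, 5 and 8 were found in at least 10% of its cells. So were 6, 8 and 6 of 8 monocyte genes and 5, 5 and 6 of 8 macrophage genes. In sums, dendritic genes stood at 165, 74.4 and 154, monocyte genes at 16.6, 25.6 and 15.9 and macrophage genes at 13.1, 11.8 and 12.4. Its 6 neutrophil genes summed to 58.1, 53.8 and 65.8, with 1, 2 and 0 of them in at least 10% of cells.

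The promoters of 6 members matched a RefSeq entry. *Il34*, *Csf1r* and *Adgre1* were not matched. The runs below are shown because their genes sat in different cells: *Mrc1*, *Cd163* and *Cx3cr1* in macrophage-like cells and *Csf1* in TM labels. Each run is the 250 bases before the RefSeq transcription start in build GRCm38.p6, read 5′ to 3′ on the strand of the gene, and capitals mark matches on either strand to GAGGAA (the core bound by PU.1 and other ETS factors), the TATA box TATAAA, the GC box GGGCGG or TGACTCA (the AP-1 site), where a match on the opposite strand reads TTCCTC for the first and CCGCCC for the third. The windows are chr2:14229164-14229413 (plus strand) for *Mrc1*, chr6:124304401-124304650 (plus) for *Cd163*, chr9:120068297-120068546 (minus) for *Cx3cr1* and chr3:107760470-107760719 (minus) for *Csf1*.
Mrc1: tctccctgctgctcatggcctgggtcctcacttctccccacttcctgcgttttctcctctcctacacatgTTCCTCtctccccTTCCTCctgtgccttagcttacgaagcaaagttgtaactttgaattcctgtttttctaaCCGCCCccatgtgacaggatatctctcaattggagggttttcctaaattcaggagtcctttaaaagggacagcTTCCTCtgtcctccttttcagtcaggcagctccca
Cd163: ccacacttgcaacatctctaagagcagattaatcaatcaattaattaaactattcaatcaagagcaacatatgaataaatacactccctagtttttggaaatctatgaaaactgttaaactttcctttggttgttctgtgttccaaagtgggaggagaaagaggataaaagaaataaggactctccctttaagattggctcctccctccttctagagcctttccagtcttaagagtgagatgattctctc
Cx3cr1: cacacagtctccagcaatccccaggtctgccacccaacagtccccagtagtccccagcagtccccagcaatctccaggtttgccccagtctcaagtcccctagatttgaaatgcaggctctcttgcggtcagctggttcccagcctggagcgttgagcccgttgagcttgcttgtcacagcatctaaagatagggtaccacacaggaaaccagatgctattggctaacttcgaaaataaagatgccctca
Csf1: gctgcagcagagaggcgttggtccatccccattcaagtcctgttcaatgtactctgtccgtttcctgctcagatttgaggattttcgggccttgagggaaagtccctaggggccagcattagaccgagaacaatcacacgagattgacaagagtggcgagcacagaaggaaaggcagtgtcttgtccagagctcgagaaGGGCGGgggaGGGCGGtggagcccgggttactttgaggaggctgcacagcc
The *Mrc1* window held 3 matches to GAGGAA, at positions -180, -167 and -35 from the start, and 1 GC box. The *Csf1* window held 2 GC boxes, at -51 and -41, and 10 CpG pairs at 56.4% GC. In the *Cd163* and *Cx3cr1* windows no match to the 4 motifs was found, and *Cd163* had 0 CpG pairs at 36.8% GC. Over 32851 mouse promoters of the same length, GAGGAA was present in 23.3%, TATAAA in 12.4%, GGGCGG in 32.7% and TGACTCA in 4.46%, with a median of 6 CpG pairs and 52.4% GC. A match is a run of letters and not a measured binding site.

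*Csf1*, the broadly made ligand (chromosome 3, 107741048 to 107760469, minus strand, GRCm38), was carried mostly by stromal cells. The 11 TM labels held 57.2%, 64.5% and 60.4% of all its UMIs, beside 23.7%, 28.4% and 23.4% of the UMIs of all genes. Clusters 23 to 25 held 1.47%, 1.87% and 0.895%, although those 3 clusters held 5.22%, 7.21% and 5.62% of all UMIs. A level here is a gene's UMIs in a cell as parts of 10,000, averaged over the cells of a label. The highest level was in TM11, a label of 27, 46 and 49 cells, at 7.55, 8.46 and 9.44, where 77.8%, 78.3% and 77.6% of cells held at least 1 *Csf1* UMI. TM10 followed at 4.16, 4.37 and 5.87. Both of these labels lay above the next one in each control, while from the third label, cluster 18 at 2.38, 2.45 and 3.32, neighbours in the order were not separated by more than the spread of the 2 controls. TM5 stood at 1.60, 2.87 and 3.33, TM4 at 1.70, 2.30 and 2.63, and TM2 at 1.70, 1.97 and 3.21, and the lowest TM label was TM6 at 0.623, 0.634 and 0.486. SC endothelium held 0.522, 0.842 and 0.593. Limbal epithelium (cluster 4) held 0.0635, 0.0672 and 0.0938. Its median depth was 14480.5, 12359 and 14092 UMIs per cell, and free RNA in the droplets was not measured. Within the myeloid cells *Csf1* reached 0.277, 0.711 and 0.114 in cluster 23 and 0.185, 0.202 and 0.189 in cluster 24, and no UMI was seen in cluster 25. That limits the share of cells with a detected UMI there to 5.36%, 3.70% and 5.17%, and at this shallow depth says little about expression.

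*Il34*, the second ligand (chromosome 8, 110741829 to 110805924, minus strand), was sparser and highest in pericytes. Clusters 19 to 21 held 58.5%, 50.3% and 33.1% of its UMIs and the TM labels 26.3%, 38.3% and 40.7%. Of the UMIs of all genes, clusters 19 to 21 held 6.79%, 7.88% and 2.52% and the TM labels 23.7%, 28.4% and 23.4%. In clusters 19 to 21, 20.3%, 19.3% and 35.4% of 1036, 1185 and 345 cells were positive for *Il34*. Cluster 20, the pericytes of the study, held it at 1.68, 1.37 and 1.91, with 334, 334 and 179 UMIs and 41.0%, 40.4% and 45.0% of cells positive. The neighbouring smooth muscle label, cluster 19, held 1, 0 and 0 UMIs. Cluster 21, vascular smooth muscle, held 0.311, 0.334 and 0.983, on 27, 26 and 33 UMIs, and the share of positive cells was 10.6%, 12.6% and 31.9%. The exact 95% interval of that last share ran from 21.2% to 44.2% and covers counting error only. Among TM labels TM5 stood at 0.530, 0.338 and 0.281, TM11 at 0.371, 0.339 and 0.210, and TM1 at 0.150, 0.385 and 0.550. In clusters 4 and 5, the limbal and corneal epithelium, 0.303%, 0.494% and 0.988% of cells held an *Il34* UMI. Hence both ligands were found in TM5 and TM11, where *Csf1* was the higher, and in cluster 20. There *Csf1* was the lower of the 2, at 0.942, 0.878 and 0.726. Across the 35 labels Pearson's r between *Csf1* and *Il34* was 0.514, a description over labels that share libraries and depth.

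**Figure D1:**
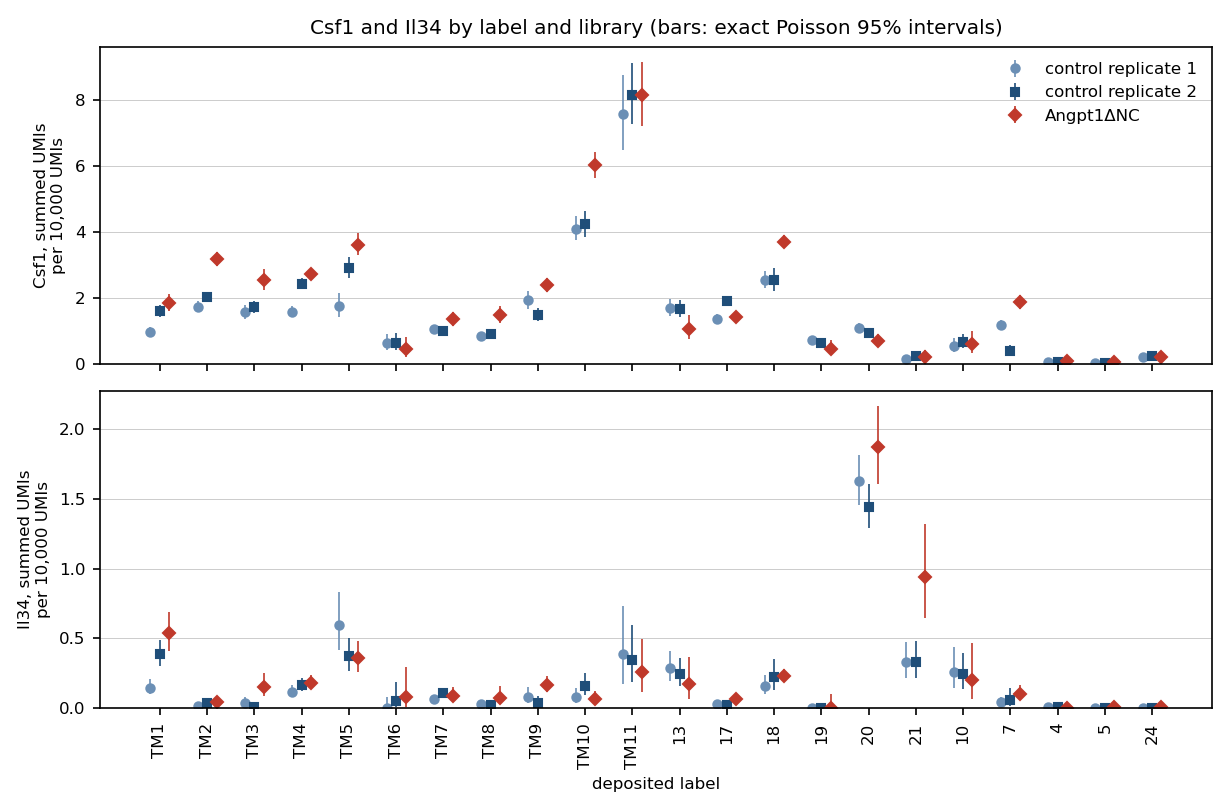
Summed UMIs per 10,000 of *Csf1* (upper panel) and *Il34* (lower panel) by label, with 1 point per library and exact 95% Poisson intervals, which cover counting error only. *Csf1* peaks in TM11 and TM10 in all 3 libraries, and *Il34* in cluster 20.

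*Csf1* was higher in the TM labels of the *Angpt1*ΔNC library, a class that mixes corneal, uveal and meshwork cells. Over the 11 TM labels together its level was 1.53, 1.70 and 2.90, on 2874, 4241 and 4658 UMIs, and the *Angpt1*ΔNC value lay above both controls. The log2 fold change was 0.81 ± 0.16 (SE, 2 control libraries against 1) with an adjusted p of 0.0199 by edgeR's quasi-likelihood test. Among the 14570 genes tested in this class 8.58% passed in either direction and 3.4% were higher, and *Csf1* was the 1 of 6 tested members that passed. Of the cells in TM labels 39.5%, 42.0% and 54.5% were positive, and positive cells held 2.60, 3.04 and 4.39 UMIs each. Both of these rise with depth, and the median depth was 5913, 6377 and 7494 UMIs per cell. Scaled to depth, positive cells stood at levels of 3.87, 4.04 and 5.32. Without the 1% of cells richest in *Csf1* the level was 1.32, 1.47 and 2.60. By label, the *Angpt1*ΔNC library exceeded both controls in 9 of 11 TM labels in UMIs summed over cells, fell below both in TM6 and lay between them in TM11, while over all gene and TM label pairs 36.5% exceeded both controls. The change was 1.17 in cells typed as male, with an adjusted p of 2.85e-05, and 0.66 or 0.98 when either control was left out. When the 11 labels were weighted alike, the levels were 2.16, 2.47 and 3.14 and the difference 0.44 on the log2 scale, so the make-up of the TM class moved with this value and its part was not tested. The epithelial clusters 3 to 5, with 82, 70 and 168 *Csf1* UMIs, gave 1.12 ± 0.26 (adjusted p = 0.0878, with 2.26% of 13319 genes called there), at levels of 0.0408, 0.0419 and 0.0804. None of the 5 members tested there was called by edgeR or by DESeq2, which gave an adjusted p for *Csf1* and *Cx3cr1* alone, and *Csf1* was the 1 with an unadjusted p under 0.05.

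*Il34* in the TM labels gave 163, 274 and 261 UMIs in 4.50%, 6.35% and 9.71% of cells. Its log2 fold change of 0.68 ± 0.22 did not pass over all genes (adjusted p = 0.0980 by edgeR). It stood at 0.22 with the labels weighted alike and at 0.91 in cells typed as male, where the adjusted p was 0.0138. The library of *Angpt1*ΔNC exceeded both controls in 6 of the 10 TM labels with at least 15 *Il34* UMIs and fell below both in TM5, TM10 and TM11. The receptor and identity genes tested in these labels were sparse and did not pass: *Csf1r*, with 15, 20 and 19 UMIs, gave 0.52 ± 0.48, *Cx3cr1* 1.01 ± 0.65, *Adgre1* 0.14 ± 0.76 and *Mrc1* 0.09 ± 0.61. Over all labels *Csf1* exceeded both controls in 18 of 33 and *Il34* in 11 of 17, against 33.9% of all gene and label pairs.

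The receptor *Csf1r* (chromosome 18, 61100598 to 61132149, plus strand) sat in the myeloid clusters, which held 90.7%, 96.4% and 96.8% of its UMIs. In cluster 24 its level was 5.33, 4.96 and 5.26, with 91.8%, 90.6% and 91.5% of cells positive. Cluster 25 stood at 6.12, 4.80 and 4.60 and cluster 23 at 2.18, 2.25 and 2.06, so the *Angpt1*ΔNC library lay between the controls in cluster 24 and below both in the others. Lymphocyte cluster 22 held 0, 0 and 0.0567. In clusters 4 and 5 the share of positive cells was 0.708%, 0.494% and 0.439%.

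A small second site of *Csf1r* was the retinal pigment epithelium, cluster 1. There 153, 50 and 13 UMIs were counted in 133, 81 and 17 cells, 54.1%, 35.8% and 35.3% of which were positive, at a level of 0.634, 0.403 and 0.315. *Adgre1*, *Cx3cr1*, *Cd163* and *Ccr2* were at 0 UMIs in those cells, *Mrc1* had 0, 1 and 0, and *Tyrobp*, an adaptor of myeloid receptors, had 1, 0 and 0. Of the complement genes of macrophages *C1qa* had 0, 1 and 7 UMIs, *C1qb* 3, 4 and 2 and *C1qc* 0, 2 and 6, and the protease gene *Ctss* had 0, 1 and 2. The 17 cells of the *Angpt1*ΔNC library allow no comparison of genotypes.

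**Figure D2:**
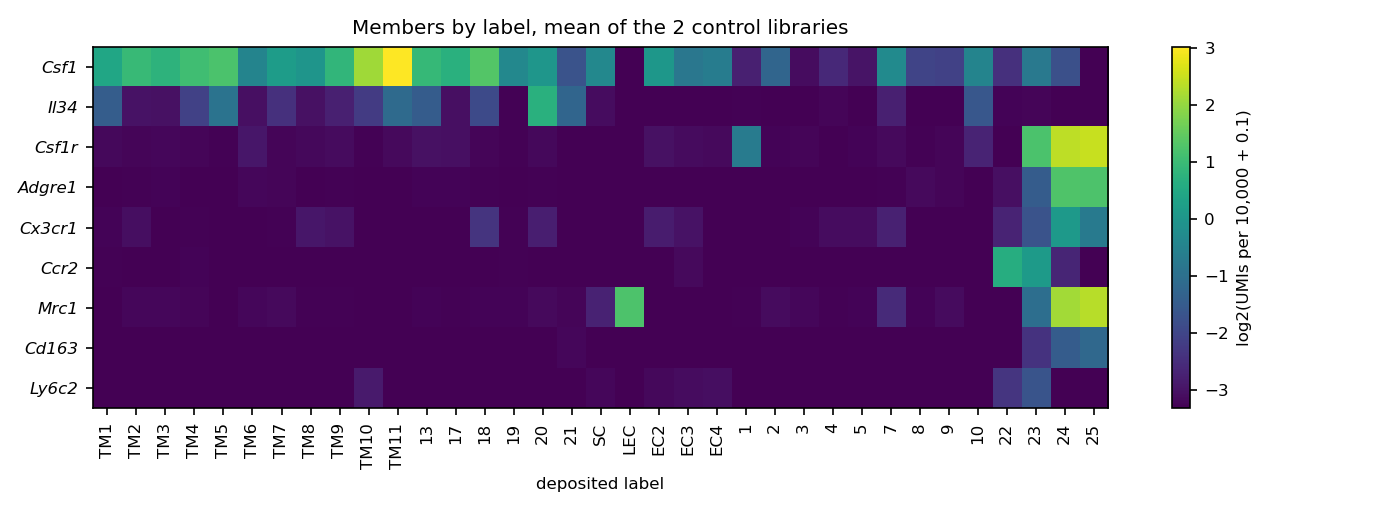
Heat map of the 9 members (rows) over the 35 labels (columns), coloured by log2 of the mean level of the 2 control libraries in UMIs per 10,000 plus 0.1. *Csf1* is spread over TM labels, *Il34* peaks in cluster 20, and *Csf1r*, *Adgre1*, *Mrc1* and *Cd163* peak in clusters 24 and 25. The *Mrc1* value in LEC rests on 3 and 1 cells.

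*Adgre1*, which encodes F4/80 (chromosome 17, 57358691 to 57483527), lay almost wholly in the myeloid clusters, with 96.1%, 98.7% and 97.8% of its UMIs. It stood at 2.26, 2.34 and 2.48 in cluster 24, at 1.92, 2.60 and 2.58 in cluster 25 and at 0.143, 0.370 and 0.447 in cluster 23. The positive shares of 69.1%, 70.4% and 74.1% in cluster 24 compare with 7.14%, 19% and 22.1% in cluster 23, where the median depth was 6439, 5877 and 7820.5 UMIs. *Csf1r*, by contrast, was found in 51.4%, 60.6% and 48.8% of the cells of cluster 23.

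*Mrc1* (chromosome 2, 14229392 to 14332057) stood at 4.15, 4.39 and 4.99 in cluster 24, at 5.82, 4.03 and 3.55 in cluster 25 and at 0.277, 0.493 and 0.518 in cluster 23. CD206 is also made by lymphatic endothelium, and the LEC label held 2, 3 and 4 *Mrc1* UMIs in 3, 1 and 12 cells, too few for a level. *Cx3cr1* (chromosome 9, 119901616 to 120069879) stood at 0.947, 0.979 and 0.958 in cluster 24 with 37.1%, 39.8% and 39.7% of cells positive. It fell to 0.107, 0.305 and 0.167 in cluster 23. The annotated span of *Cx3cr1* overlaps 3 genes on its own strand, *Gorasp1*, *Csrnp1* and *Xirp1*. Whether reads of those genes entered its counts, in any label, was not tested. Of its UMIs 85.2%, 87.5% and 57.9% lay in clusters 23 to 25. Outside clusters 22 to 25, 16 cells held at least 5 *Cx3cr1* UMIs (2, 4 and 10 by library), and 15 of the 16 had no UMI of 7 other myeloid genes.

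*Cd163* (chromosome 6, 124304656 to 124330527) was sparse in the controls and higher in cluster 24 of the *Angpt1*ΔNC library, while in cluster 25 it stood at 0.365, 0.316 and 0.351 on 3, 5 and 3 UMIs. Its level in cluster 24 was 0.281, 0.241 and 0.695, on 94, 117 and 194 UMIs. The share of positive cells was 10.1%, 10.8% and 20.7%, with exact 95% intervals of 7.63 to 13, 8.51 to 13.4 and 16.8 to 25.0 that cover counting error within each library. Median depth was 6577, 6554 and 6903 UMIs per cell, and no *Cd163* UMI was found in clusters 4 and 5 of any library. The log2 fold change was 1.39 ± 0.17 (SE) with an adjusted p of 0.00366 by edgeR. In cluster 24, 2.55% of 10329 genes passed and 1.52% were higher, and of 7 members tested *Cd163* was the 1 that passed. Positive cells held 1.81, 1.65 and 2.34 *Cd163* UMIs, and no single cell held more than 6, 6 and 12. The change was 1.20 in cells typed as male (adjusted p = 0.0186) and 1.45 or 1.31 with either control left out. DESeq2 gave the same fold at an adjusted p of 0.0746, which ended the call. Haemoglobin transcripts, summed over 4 genes, also stood apart in cluster 24, at 22, 3.65 and 148 UMIs per 10,000, and their part in the *Cd163* value was not tested.

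The other members tested in cluster 24 did not pass. *Csf1r* gave a log2 fold change of 0.09 ± 0.16 (adjusted p = 0.836 by edgeR), *Adgre1* 0.14 ± 0.14 (0.696), *Cx3cr1* 0.11 ± 0.15 (0.778), *Mrc1* 0.22 ± 0.15 (0.529), *Csf1* 0.02 ± 0.23 (0.980) and *Ccr2* 0.77 ± 0.49 (0.490). *Il34* and *Ly6c2* were under 15 UMIs there and were not tested. In cluster 25, where 0.545% of 2018 genes passed, 4 members were tested and none was called by edgeR (DESeq2 gave them no adjusted p): *Csf1r* gave -0.18 ± 0.34, *Adgre1* 0.26 ± 0.45, *Cx3cr1* 0.58 ± 0.79 and *Mrc1* -0.58 ± 0.36. None of the members had an unadjusted p under 0.05 in that cluster. With 1 residual degree of freedom between libraries, changes of the size of these standard errors were not detectable.

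**Figure D3:**
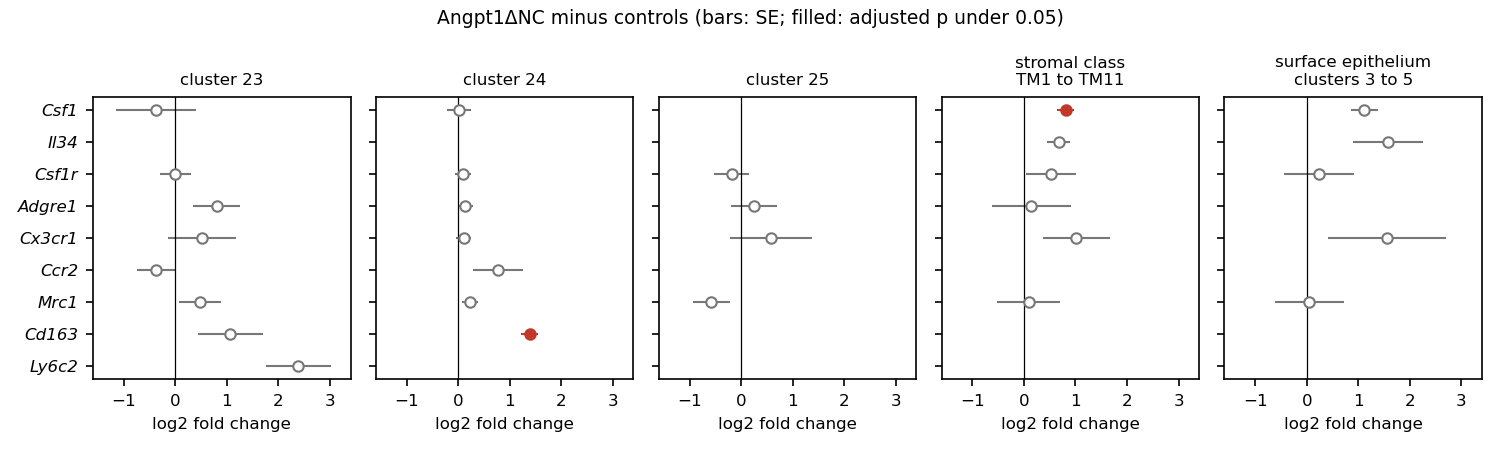
Log2 fold changes of the members, *Angpt1*ΔNC minus control, with their standard errors, by class of cells, from edgeR's quasi-likelihood test on summed UMIs (2 control libraries against 1). Filled points mark an adjusted p under 0.05, which *Csf1* in the TM labels and *Cd163* in cluster 24 reached.

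Within cluster 24 *Mrc1* and *Cd163* split by a further gene. *Cd207* (langerin), a lectin known from Langerhans cells, was detected in 90, 147 and 69 cells, or 17.5%, 22.3% and 17.2% of the label. *Mrc1* was found in 31.1%, 38.1% and 39.1% of the cells with *Cd207* and in 72.0%, 71.3% and 75.3% of those without, the same order in all 3 libraries. The *Mrc1* level was 0.915, 1.55 and 1.31 against 4.84, 5.21 and 5.75. *Cd163* followed *Mrc1*, with 2.22%, 1.36% and 4.35% of the cells with *Cd207* positive against 11.8%, 13.5% and 24.1%. The receptor did not split this way: *Csf1r* was found in 93.3%, 87.8% and 91.3% of cells with *Cd207* and 91.5%, 91.4% and 91.6% of those without. *Adgre1* stood at 66.7%, 66.0% and 68.1% against 69.6%, 71.7% and 75.3%, and *Cx3cr1* at 40.0%, 38.1% and 43.5% against 36.5%, 40.2% and 38.9%. Median depth was 6570.5, 6460 and 7016 UMIs with *Cd207* and 6586, 6557 and 6863 without it. Since *Cd207* was itself among the clustered genes and the split was chosen after its values were seen, these shares carry no test.

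*Cd163* was nested in *Mrc1*. Of the cells of cluster 24 positive for *Cd163*, 98.1%, 95.8% and 95.2% also held *Mrc1*. Among *Mrc1* cells the *Cd163* share was 15.3%, 16.2% and 28.5%, and among cells without *Mrc1* it was 0.552%, 1.26% and 3.23%. The higher share in the *Angpt1*ΔNC library was thus present within *Mrc1* cells. With *Cd207* cells left out the log2 fold change of *Cd163* was 1.37 at an adjusted p of 0.000144 by edgeR. That fit, added after seeing the data, called 417 of 9857 genes, beside 2.55% of 10329 in the whole cluster. It was not run with DESeq2, so its smaller p is no added support. *Adgre1* cells held *Mrc1* in 73.0%, 69.4% and 75.1% of cases against 46.5%, 50.8% and 51.9% of cells without *Adgre1*. Median depth was 6840, 6822.5 and 7056 UMIs with *Adgre1* and 5602, 5981 and 6086.5 without. It was 6856, 6830 and 7175 with *Mrc1* and 5978, 5917 and 6226.5 without. Deeper cells show more genes, and the part of depth in these shares was not tested.

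**Figure D4:**
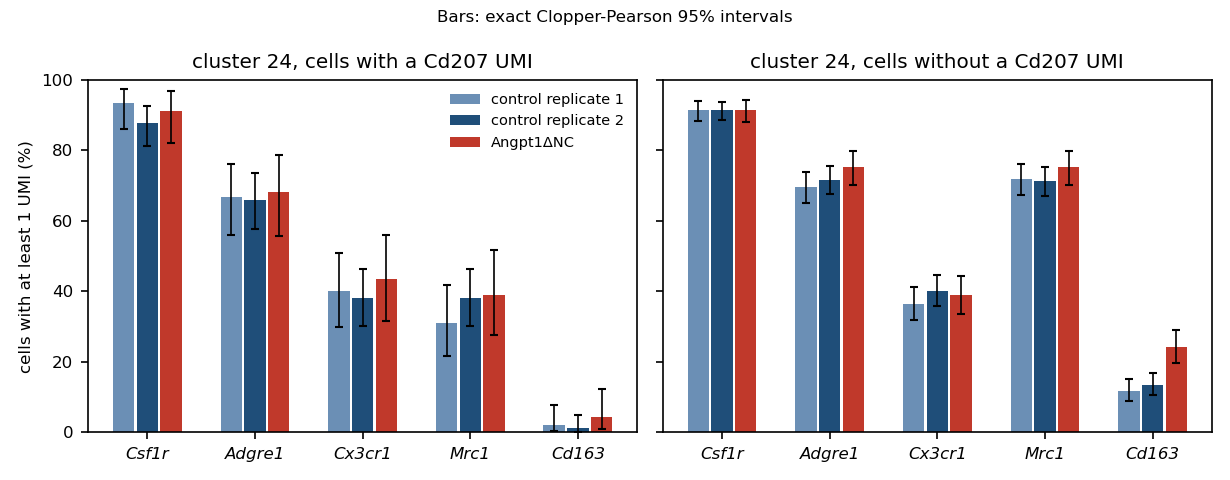
Share of cells of cluster 24 with at least 1 UMI of *Csf1r*, *Adgre1*, *Cx3cr1*, *Mrc1* and *Cd163*, for cells with a *Cd207* UMI (left) and without (right), by library with exact 95% Clopper-Pearson intervals. *Mrc1* and *Cd163* are lower on the left in all 3 libraries, and the *Csf1r* shares lie between 87.8% and 93.3% on both sides.

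*Ccr2*, the receptor that draws monocytes from the blood (chromosome 9, 124101950 to 124113557), was at the low end in macrophage-like cells and marked clusters 22 and 23. In cluster 23 its level was 0.770, 1.21 and 0.725, with 30.0%, 38.0% and 27.9% of cells positive. In cluster 24 only 1.75%, 3.34% and 3.99% of cells were positive, against 0%, 0% and 0.110% in clusters 4 and 5, and cluster 25 had no *Ccr2* UMI. Lymphocyte cluster 22 stood at 1.66, 1.21 and 3.09. There 19.1%, 16.5% and 39.0% of 89, 133 and 105 cells were positive, and after thinning each cell to 2000 UMIs, with 26, 38 and 24 shallower cells left out, the shares were 19%, 17.9% and 35.8%. All of the *Ccr2* signal assigned to marked lymphocytes was in cells with T-cell markers and no B-cell marker. Of these, 14 of 47, 21 of 72 and 39 of 78 were positive (29.8%, 29.2% and 50%). No *Ccr2* UMI was found in the 26, 25 and 11 cells with B-cell markers alone or the 5, 24 and 10 with both. Cells with T-cell markers and no B-cell marker made up 52.8%, 54.1% and 74.3% of the label, so its make-up differed between libraries. The genotype difference in cluster 22 was not tested.

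*Ly6c2* (chromosome 15, 75108158 to 75111970), the classical monocyte antigen, was the sparsest member, with 13, 45 and 103 UMIs in whole libraries. In cluster 23 it gave 1, 32 and 66 UMIs and 1.43%, 12.7% and 10.5% of cells were positive. A single *Angpt1*ΔNC cell held 42 of those UMIs. No *Ly6c2* UMI was found in clusters 24 and 25. In cluster 22 it gave 3, 1 and 21 UMIs, and 4.26%, 1.39% and 14.1% of the cells with T-cell markers and no B-cell marker were positive. The near copy *Ly6c1* shared 13.9% of 2733 windows of 50 bases with *Ly6c2*, and 34.7% in the last 400 bases, so reads of the pair can be split wrongly. *Ly6c1*, known from endothelium, was at 0 in cluster 22 and at 0.0325, 0.286 and 0 in cluster 23, and at 5.02, 4.63 and 7.61 in the endothelial label EC4. It was also high in TM10, at 7.26, 5.66 and 5.50, where *Ly6c2* had 3 and 5 UMIs in the controls. Of the *Ly6c2* cells, 9 of 13, 23 of 31 and 3 of 23 also held *Ly6c1*.

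In cluster 23 no member passed by edgeR or by DESeq2, which gave *Csf1*, *Cx3cr1* and *Cd163* no adjusted p, and 0.293% of 6826 genes did by edgeR. *Ly6c2* gave 2.39 ± 0.62 (adjusted p = 0.199 by edgeR), a value that was -1.74 in cells typed as male and 5.30 without control 2. *Adgre1* gave 0.80 ± 0.46 (0.718), *Cd163* 1.06 ± 0.63 (0.723), *Mrc1* 0.48 ± 0.42 (0.861) and *Ccr2* -0.37 ± 0.38 (0.890), and *Csf1r* was level at 0.00 ± 0.30. *Ly6c2* was the 1 of the 8 tested members with an unadjusted p under 0.05. Cluster 23 was itself mixed: cells with *Plac8* and without *Ccr7* numbered 18, 71 and 20, and 88.9%, 76.1% and 95% of them held *Csf1r*, 33.3%, 49.3% and 35% *Ccr2* and 5.56%, 22.5% and 35% *Ly6c2*. Cells with *Ccr7*, a homing receptor of migratory dendritic cells, made up 34.3%, 16.9% and 50% of the label, so its make-up differed between libraries.

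**Figure D5:**
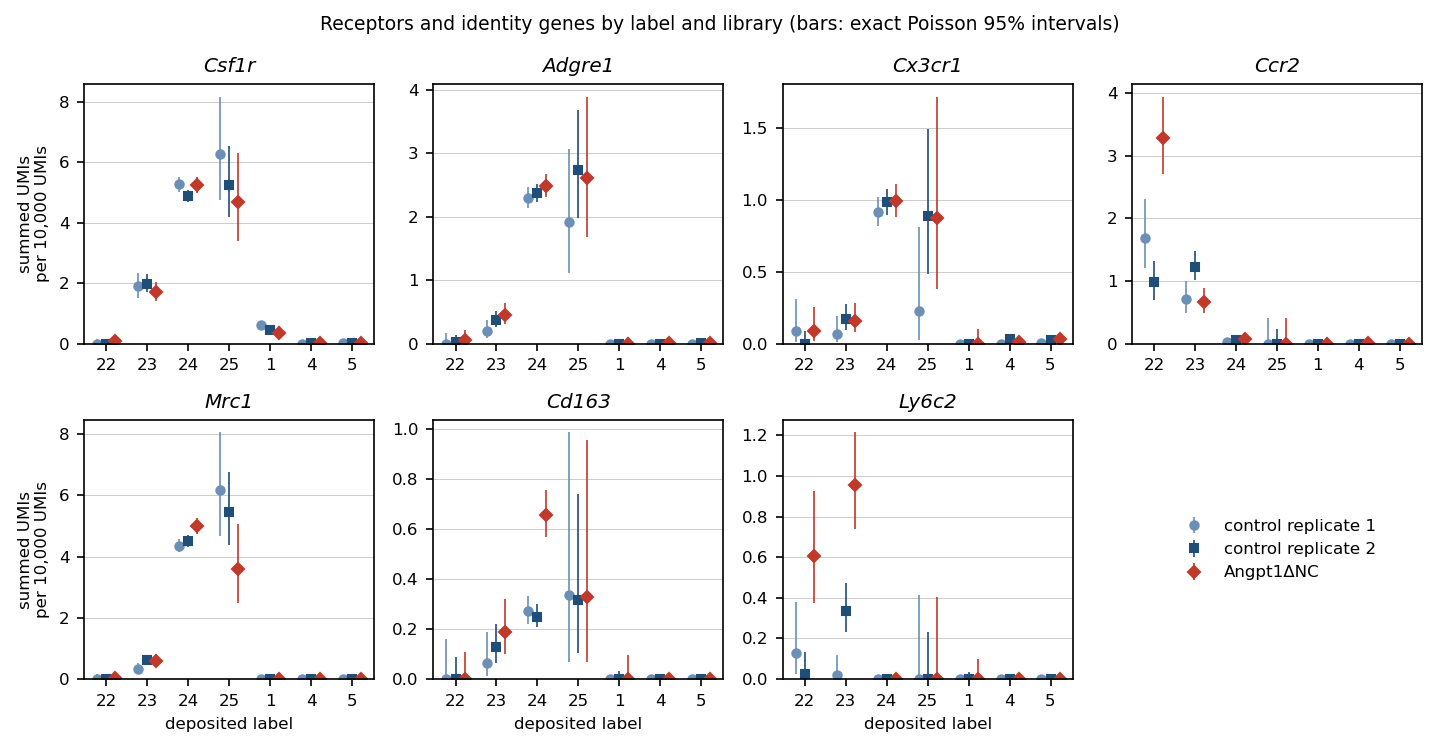
Summed UMIs per 10,000 of *Csf1r* and the 6 identity genes in clusters 22 to 25, retinal pigment epithelium (1) and epithelium (4 and 5), with 1 point per library and exact 95% Poisson intervals. *Csf1r*, *Adgre1* and *Mrc1* are high in 24 and 25, *Ccr2* in 22 and 23, and *Cd163* in cluster 24 is above both controls in the *Angpt1*ΔNC library.

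The wider pathway was read from 7 lists. In cluster 24, 1 of 18 tested genes of CSF1R signalling passed, *Cbl*, a ubiquitin ligase that turns the receptor over, at 0.258, 0.245 and 0.580 (log2 fold change 1.14, adjusted p = 0.0129 by edgeR). Of 11 macrophage transcription factors *Runx1* (0.80) and *Maf* (0.86) were higher. Of 7 other myeloid growth factors and receptors *Csf2*, which encodes GM-CSF, was higher by 1.28, and of 5 ligands of CX3CR1 and CCR2 the chemokine *Ccl12* was, at 8.03, 5.03 and 14.6. Among 17 core macrophage genes *Fcgr3* (0.81) and *Mertk* (1.65), a receptor for dying cells, were higher, and among 12 perivascular or Lyve1 resident macrophage genes *Fcna* (1.68) and *F13a1* (0.77) were. Of 8 tested monocyte genes *S100a4* was, by 1.14. In all, 10 of the 78 list genes tested in cluster 24 were higher and 0 lower by edgeR, with 29 at an unadjusted p under 0.05, beside 2.55% of all genes called and 1719 of 10329 at an unadjusted p under 0.05. DESeq2 called 0 of the list genes and gave 11 of them no adjusted p. The median log2 fold changes, in the order of the lists above, were -0.15, -0.02, 0.18, 0.32, -0.05, 0.43 and 0.62, beside -0.01 over all genes tested. No list gene passed in cluster 23 by edgeR, where 11 of 73 tested had an unadjusted p under 0.05 beside 549 of 6826 genes in all, or by DESeq2, which gave 16 of them no adjusted p. In cluster 25 *Apoe*, a lipid carrier, was the 1 of 44 tested list genes called by edgeR, beside 0.545% of 2018 genes. It was lower at 693, 523 and 310 (log2 fold change -0.90, adjusted p = 0.0101). DESeq2 called 1 list gene in that cluster and gave 33 no adjusted p.

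In the TM labels the lists held calls in both directions. The make-up of this class differed between libraries. TM7 held 667, 739 and 174 cells, TM8 591, 612 and 155, and TM9 204, 298 and 327. The part of make-up in the calls below was not tested. Of 5 ligands *Ccl2*, the main ligand of CCR2, was higher at 25.1, 23.3 and 40.0 (log2 fold change 0.68, adjusted p = 0.0235 by edgeR) and *Ccl8* was lower by 0.95 on the log2 scale. Of 8 growth factors and receptors *Kitl*, the ligand of KIT, was lower at 4.62, 4.15 and 2.00, and *Il3ra* was higher by 1.89. *Cebpb*, a transcription factor of myeloid cells that many stromal cells also express, was lower at 25, 20.4 and 12.1, and so was *Cebpa* (-0.70), which left 9 of 11 transcription factors without a call. Of 15 tested genes of CSF1R signalling 1 was higher, *Src* (0.79), and 1 was lower. Of 8 monocyte genes *S100a4* was higher (0.85) and *Plac8* (-2.03) and *Nr4a1* (-0.89) were lower, and of 5 perivascular genes *Selenop* was lower (-0.75). Medians ran from -0.26 for the ligands to 0.46 for the perivascular list, beside -0.01 over all genes tested. Of 16 core macrophage genes 3 passed, with *Fcer1g* (1.49) and *Fcgr3* (1.76, on 13, 15 and 36 UMIs) higher and *Cd14* (-1.56) lower, and the part of myeloid RNA in these labels was not tested. Over the 7 lists edgeR called 15 of 68 tested genes, beside 8.58% of all genes, and DESeq2 called 12, beside 623 of 14570 genes in all, without *Src*, *Fcgr3* and *Cebpa*. In the epithelium *Trem2*, a lipid receptor of macrophages, was lower with 38, 24 and 0 UMIs, and *Nr4a1* was lower by 1.62 on the log2 scale. They were the 2 of 63 tested list genes that edgeR called, beside 2.26% of all 13319 genes. DESeq2 called 3 list genes there, beside 467 genes in all, and gave 17 of the list genes no adjusted p. A further list of 12 immediate early and heat shock genes had a median log2 fold change of -0.72 in the epithelium. Over all genes there the median was -0.02. In the TM labels that list stood at -0.20, beside -0.01 over all genes. The part of such a shift in the *Nr4a1* values was not tested.

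By the shape of their levels over the 35 labels, the members fell in different company, described by Pearson's r over 7798 genes and with labels that share libraries and depth. *Csf1* was closest to *Bmp1* (0.877) and *Mfap2* (0.871), which act in the extracellular matrix, and *Il34* to *Ndufa4l2* (0.760) and *Gpr153* (0.743). *Adgre1* was closest to *Ms4a7* (0.995) and *F13a1* (0.993), *Csf1r* to *Hk3* (0.956) and *Fcgr1* (0.955), *Mrc1* to the complement genes *C1qc* (0.969) and *C1qa* (0.966), and *Cd163* to *F13a1* (0.996). *Ccr2* was closest to *H2-Oa* (0.992) and *P2ry10* (0.990), and *Ly6c2* to *Itgal* (0.958). Among the members, *Adgre1* and *Cd163* stood at 0.994, *Csf1r* and *Adgre1* at 0.928, *Ccr2* and *Ly6c2* at 0.898, and *Csf1* and its receptor at -0.318. For members at or near 0 in most labels, r rests mainly on the few labels that held them. *Cd163* had a control mean of 0.341 in cluster 25, 0.261 in cluster 24, 0.0905 in cluster 23 and 0.00757 in cluster 21. All 35 labels entered alike, also LEC with 3 and 1 control cells.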

How the data were processed

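The 3 libraries were made on the 10x Chromium platform. The authors aligned the reads with Cell Ranger (version 2.1.1 in the submitters' processing notes and 3.0.2 in the headers of the matrices, build mm10), and the deposited matrices hold raw UMI counts per gene and cell. The deposited cell table gives the labels of the cells the authors kept after their filters on genes, UMIs and mitochondrial reads and after removal of doublets with scDblFinder, and its 35 labels were used as given.

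Levels were UMIs of a gene as parts of 10,000 of a cell, averaged over cells of a label and library. Shares of positive cells had exact Clopper-Pearson 95% intervals and summed UMIs exact Poisson intervals. UMIs of cells in 1 library are not replicates, and intervals and zero limits (3 counts) cover counting error only. For genotype, raw counts were summed per library in 5 classes (clusters 23, 24 and 25, TM1 to TM11, and epithelial clusters 3 to 5). They were tested with edgeR 4.0.16 in R 4.3.3 (quasi-likelihood, TMM, genes with at least 15 UMIs over the 3 libraries, Benjamini-Hochberg over all genes tested, threshold 0.05), with 1 residual degree of freedom. The spread of the *Angpt1*ΔNC group is thus taken from the control pair, and p-values measure the spread between these pools alone. The SE of a log2 fold change was its size over the square root of F. The procedure was tested on simulated counts, where 4-fold changes were recovered in 79%, 92%, 34%, 95.5% and 94% of genes in the 5 classes in the order named. False calls made up 4.2%, 5.2%, 0%, 4.5% and 7.8% of the calls. The changed genes were picked from those with higher counts, and all genes of a class shared a dispersion. The recovery therefore does not extend to sparse genes or smaller changes. DESeq2 1.42.0, RLE size factors, a minimum of 1 UMI, each control left out and cells typed as male were alternatives. Fits without *Cd207* cells and with TM labels weighted alike were added after seeing the data.

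The members and the gene lists were chosen with earlier results of these data known. The result of 1 list gene is not reported here. Genes outside the 9 were named where they passed in a list or were among the 3 most alike by Pearson's r on log2 levels plus 0.1. *Cd207*, *Plac8* and *Ccr7* were chosen after their values were seen. Gene positions are from the GRCm38 annotation and promoters from RefSeq. Python 3.11.15 with numpy 2.4.6, scipy 1.17.1 and pandas 2.3.3 was used, and matplotlib 3.10.9 for plots.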

Additional observations from a re-analysis of the deposited data

How the results depend on the processing

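Neither of the called member values changed sign under the alternatives run. *Cd163* in cluster 24 lost its call with DESeq2 (1.39, adjusted p = 0.0746). A minimum of 1 UMI added calls for *Ly6c2* in cluster 23 (2.38, adjusted p = 1.47e-05), *Il34* in the TM labels (0.67, 0.00784) and, in the epithelium, *Csf1* (1.11, 0.00362) and *Cx3cr1* (1.55, 0.00198), all edgeR. In cells typed as male *Il34* (0.91, 0.0138) and *Cx3cr1* (2.59, 0.0113) passed in the TM labels, the second on few cells. RLE size factors left the 30 member results on their side of the threshold. Counts of called genes moved more. Cluster 23 gave 20 calls, 13 with RLE size factors, 10 with DESeq2, 134 with a minimum of 1 UMI and 40 in male cells. Cluster 24 gave 263, 71 with DESeq2 and 749 with 1 UMI. Cluster 25 gave 11 and 17 with 1 UMI, and the male-typed fit was not run there for lack of cells. The TM labels gave 1250, 623 with DESeq2 and 2441 with 1 UMI, and the epithelium 301, 467 with DESeq2, 1934 with 1 UMI and 153 in male cells. The cause of these shifts was not tested, apart from the larger number of genes tested at 1 UMI. The share of cells in clusters 23 to 25 in *Angpt1*ΔNC was 1.02 times the control mean, 1.25 times in male-typed cells and 0.927 to 1.14 times with either control left out. No paired analysis was possible because the groups share fewer than 2 replicate numbers. Sparse members (*Cd163*, *Ccr2*, *Ly6c2*, *Il34*) are limited by depth, and cluster 25 most of all.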

Other observations

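*Cx3cr1* transcripts outside clusters 22 to 25 were unevenly held. They were found in 22, 28 and 28 cells, with 54, 70 and 223 UMIs in control 1, control 2 and *Angpt1*ΔNC. The 16 cells with at least 5 UMIs held 21, 37 and 190 of them, and the richest, an *Angpt1*ΔNC cell of cluster 17 with 6157 UMIs in all, held 65. None of the 16 had a UMI of *Csf1r*, *Adgre1* or *Mrc1*. The cells were picked by their *Cx3cr1* count, so these are values without a test.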
